A study of Mus musculus with 11 samples.

Results

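Mouse liver sections taken 48 h after acetaminophen (APAP, paracetamol) were compared with sections taken 24 h after it, the pair of injured times in the course that fall at the same hour of the day. All 4 sections labelled 48 h (A to D) and both sections labelled 24 h (A and B) entered, 6 of the 11 sections in the series, and the 3 uninjured sections at 0 h (replicates 2, 3 and 4) were set beside them to give the resting level. Expression was measured with the Visium assay, in which polyadenylated RNA from a thin frozen section is caught on a grid of barcoded spots, each wide enough to hold several cells. UMIs, the tags that count captured RNA molecules, were summed per section over spots under tissue with at least 800 genes and at most 20% mitochondrial UMIs, because spots of 1 section are not replicates. The injured mice had been fasted and then given APAP by intraperitoneal injection, and no allele, transgene or further agent is named for any of the groups. The labels give tissue, injury and time, and they name neither strain, age, sex, animal, slide nor batch. The study's methods describe adult mice, male where not stated otherwise, with C57BL/6JCrl as the wild-type stock, and a single mouse liver per time point in this assay. The n given here therefore counts sections, every p-value covers the spread between sections only, and mouse and time cannot be told apart.

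APAP is turned into a reactive quinone imine by cytochrome P450 enzymes that are concentrated in the hepatocytes around the central vein, and these hepatocytes die by necrosis. In the days that follow, surviving hepatocytes enter the cell cycle, macrophages clear the dead cells, and hepatic stellate cells, the vitamin A storing pericytes of the sinusoid, turn to making matrix. Hepatocytes under stress are known to give up part of their metabolic work for a time while they make chaperones, antioxidant proteins and the acute phase proteins of the plasma.

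The sections at 24 h held 45997655 and 31895764 UMIs over 2521 and 1648 spots, and those at 48 h held 43600556 to 60856876 UMIs over 1490 to 3466 spots. Levels are given in CPM, the UMIs of a gene per 1000000 UMIs of its section after TMM scaling, a correction for differences in composition between libraries. The share of mitochondrial UMIs was 1.94% and 2.37% in the 24 h sections and lay between 2.35% and 3.06% in those of 48 h. The hepatocyte markers Alb, Ttr and Apoa1 were among the most abundant RNAs of every section, and the kidney and pancreas markers Umod, Slc34a1, Prss2 and Cpa1 had 0 or 1 UMI in each. The 24 h sections differed from each other in genes of several kinds, for example Mt2 (370 and 3323 in A and B) and Gm15247 (53.9 and 9.92). Section B held more neutrophil RNA (S100a8 17.1 and 60.5 in A and B) and more globin RNA (Hbb-bs 182 and 548) than section A. In a bulk sum of this kind, fewer cells of a type and less RNA per cell cannot be told apart. The call was lost for Ttr without 0 h 3 or 24 h A or B or 48 h A, B or D.

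Of 14821 genes tested, 2408 were higher and 2643 were lower at 48 h (edgeR quasi-likelihood test, Benjamini-Hochberg adjusted p under 0.05), which is 16.2% and 17.8% of the genes tested and 34.1% in either direction. The rises were the larger changes: 1431 genes rose at least 2-fold against 568 that fell as far, and 572 against 162 changed at least 4-fold. In 3960 genes all 4 sections at 48 h lay above both at 24 h and in 4163 all 4 lay below, together 54.8% of the genes tested, so a group of sections that do not overlap is common here and says little by itself. The median log2 change over all genes was -0.000966. Scaled by total counts alone, that median was 0.20 and the calls were 3842 higher and 1348 lower. Without 24 h section A there were 2480 calls (1151 higher and 1329 lower) and without 24 h section B 2960 (1284 and 1676). In those fits the lone 24 h section is assumed to vary like the sections of the other times. Where a count of 4 or more on a list fell by more than 1.5 times, or a call was lost, in the fit without a single section, that section is named at the end of the account (without 24 h A, for example).

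The 0 h sections, under TMM scaling, were used to place which of these changes led back to the resting level and which led away from it. The TMM factors were 0.78 to 0.81 at 0 h, 0.98 and 1.01 at 24 h and 1.14 to 1.17 at 48 h. Scaling by total counts would thus raise the 48 h levels against 0 h. That scaling was not run for comparisons with 0 h, so statements of a level back at, above or below 0 h hold for TMM scaling only. Among the 2973 called genes that reached 10 CPM in a group mean, 665 had been more than 1.5-fold above 0 h at 24 h and fell back to within 1.5-fold of it, and 298 had been as far below it and rose back. A further 119 fell and 185 rose part of the way back. Against these, 183 genes within 1.5-fold of 0 h at 24 h rose away from it by 48 h and 138 fell away from it. A step further from 0 h in the direction already taken was made by 106 genes that rose and 23 that fell, and 24 and 15 crossed from one side of 0 h to the other. The remaining 1037 falls and 180 rises stayed within 1.5-fold of 0 h at both times.

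**Figure D1:**
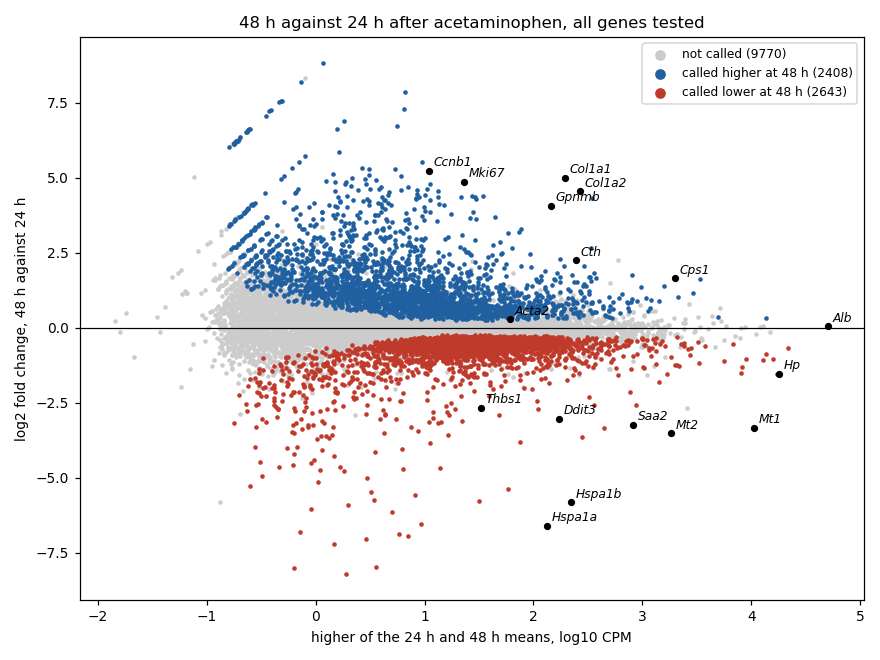
The log2 change at 48 h against 24 h (y axis) of every gene tested against the higher of its 24 h and 48 h mean levels, as log10 CPM (x axis), with called rises and falls in colour. Among genes that reach 10 CPM, cell cycle and collagen genes lead the rises, with Ccnb1 at 5.23 and Col1a1 at 5.0, and Hspa1a and Hspa1b lead the falls at -6.60 and -5.81.

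**Figure D2:**
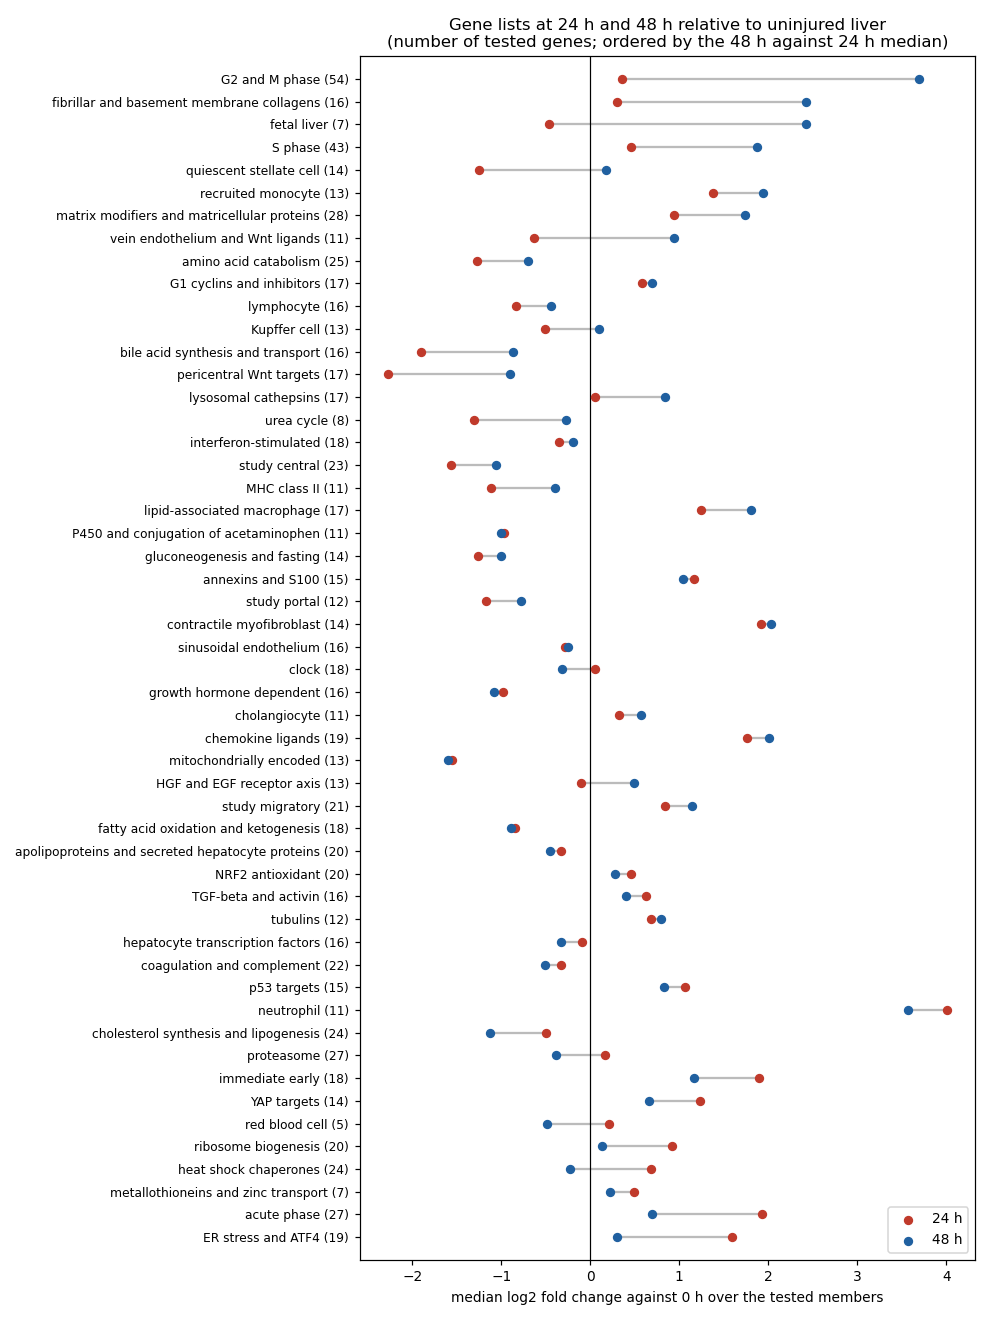
Median log2 change against 0 h (x axis) of each of 52 gene lists (y axis) at 24 h in red and at 48 h in blue, joined by a line. The G2 and M phase list moves from 0.36 to 3.69, the acute phase list from 1.92 to 0.69, and the amino acid catabolism list from -1.27 to -0.70.

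Among the 52 gene lists, that of G2 and M phase had the largest median change between the times. Its genes were scarce at 24 h, where Ccnb1 had 23 UMIs, Mki67 64 and Top2a 85 over both sections. Of 54 genes of G2 and M phase, 48 rose and 3 fell (Tubb4b, Rangap1 and Ctcf), with a median log2 change of 3.50. Of 43 genes of S phase, in which DNA is copied, 35 rose and 2 fell (Ung and Polr1b), with a smaller median of 1.36. Ccnb1, cyclin B1, the partner of Cdk1 that drives entry into mitosis, had 0.387 and 0.160 CPM at 24 h and 4.43, 11.8, 10.5 and 17.1 at 48 h. Every section at 48 h lay far above both at 24 h, and the log2 change was 5.23 ± 0.62 (SE, n = 4 and 2 sections, edgeR adjusted p = 0.00047). Cdk1 itself went from 2.86 and 1.88 to 14.5, 27.9, 34.5 and 42.3. Mki67, the gene of the Ki-67 antigen, had 1.23 and 0.223 and then 12.3, 20.8, 25.1 and 33.2, a log2 change of 4.87 ± 0.58 (adjusted p = 0.000501). Top2a, the topoisomerase that untangles sister chromatids, had 1.42 and 0.606 at 24 h and 11.3, 20.8, 23.9 and 30.2 at 48 h (log2 4.35 ± 0.45, adjusted p = 0.000329). In each of these 4 genes section A was the lowest and section D the highest of the 48 h sections, and none came near the 24 h values. The 0 h sections had 0.660, 0.828 and 1.07 for Mki67 and 0.616, 0.847 and 0.791 for Top2a. For each gene 24 h section A lay above all 3 of these and section B below all 3. The test was no longer passed for Rangap1 and Ung without 24 h A and for Ctcf without 24 h A or B.

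Promoter windows are shown for 3 of these genes, chosen because the windows hold the elements that genes of G2 and M phase are known to share. Not all members hold them. They are the 150 bases before the RefSeq transcription start on GRCm38.p6, 5′ to 3′ on the strand of the gene, with matches to TTTGAA or TTCGAA (the cell cycle homology region) and to CCAAT in capitals on either strand, so that a match on the other strand reads TTCAAA or ATTGG. The windows are chr11:99024190-99024339 for Top2a, chr7:135716380-135716529 for Mki67 and chr10:69352913-69353062 for Cdk1, all of genes on the minus strand.
Top2a: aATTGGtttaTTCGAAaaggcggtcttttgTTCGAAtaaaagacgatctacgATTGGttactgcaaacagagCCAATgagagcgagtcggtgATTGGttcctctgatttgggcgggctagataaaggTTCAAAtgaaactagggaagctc
Mki67: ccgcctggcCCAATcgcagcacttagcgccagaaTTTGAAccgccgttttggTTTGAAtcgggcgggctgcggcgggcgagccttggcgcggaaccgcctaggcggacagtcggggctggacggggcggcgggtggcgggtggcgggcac
Cdk1: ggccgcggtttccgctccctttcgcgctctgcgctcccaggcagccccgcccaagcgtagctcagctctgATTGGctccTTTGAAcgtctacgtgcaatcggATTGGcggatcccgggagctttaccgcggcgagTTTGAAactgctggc
Over windows of 250 bases before to 50 after the start, the cell cycle homology region was found in 35 of 47 (74.5%) G2 and M phase genes that had a window, in 5 of 31 (16.1%) S phase genes and in 5254 of 27025 (19.4%) genes in all. CCAAT was found in 36 of 47 (76.6%), 21 of 31 (67.7%) and 10248 of 27025 (37.9%) of the same sets. The cell cycle homology region was not found in the 150 bases before the start of Ccnb1 and Birc5, which also rose. A match of letters is a description and does not show that a factor was bound.

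Other cell cycle genes rose with them. Birc5, the survivin subunit of the chromosomal passenger complex, rose from 1.33 and 1.24 to 13.8, 27.4, 30.5 and 38.2. Cdc20, an activator of the anaphase-promoting complex, rose from 0.344 and 0.510 to 3.61, 11, 9.50 and 17.7. Ccna2, cyclin A2, rose by 4.57 on the log2 scale and stood at 6.98, 14.6, 14.1 and 17.6 at 48 h. Pclaf, a partner of the sliding clamp PCNA, rose by 4.80 and the mitotic kinase gene Pbk by 4.44.

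The genes that act earlier in the cycle had moved already at 24 h or moved less. Mcm6, a subunit of the replicative helicase, had 3.85 at 0 h, 13.3 and 11 at 24 h and 26.7, 41.2, 38.8 and 42.5 at 48 h. Pcna rose from 24.6 and 26.1 to 42.4, 55.3, 55.6 and 55.7, a log2 change of 1.04 ± 0.16 (adjusted p = 0.00107). Gins2, of the same helicase complex, was 2.38 above 0 h on the log2 scale at 24 h and 4.01 at 48 h. Among 17 G1 cyclins, kinases and inhibitors, 8 rose and 2 fell, with a median of 0.74. E2f1, a transcription factor of the G1 to S step, rose from 3.96 and 3.89 to 8.22, 10.7, 9.84 and 12.1, and cyclin E1 (Ccne1) from 3.44 and 3.25 to 4.76, 6.76, 7.02 and 6.88. Cyclin D1 (Ccnd1) had 48.4 and 20.2 at 24 h and 48.3, 97.8, 61.4 and 75.5 at 48 h, groups that overlapped (adjusted p = 0.0682). Cyclin D2 (Ccnd2) fell from 9.25 and 11 to 5.18, 4.61, 4.50 and 6.08. The inhibitor Cdkn1a (p21) had 36.3 and 59.7 at 24 h and 27.1, 16.9, 28.7 and 21.6 at 48 h against 20.2 at 0 h, with the lower 24 h section above every 48 h section and no call (adjusted p = 0.256). Of 15 p53 targets, 1 rose (Gtse1, which is also on the G2 and M list) and 2 fell, Aen and Mdm2. Both counts are below the shares over all genes tested (16.2% higher and 17.8% lower). The 8 rises among G1 genes became 5 with 24 h A or B left out. The threshold was missed for Ccne1 without 24 h A or B, for Gtse1 without 24 h A and for Mdm2 without 24 h B.

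**Figure D3:**
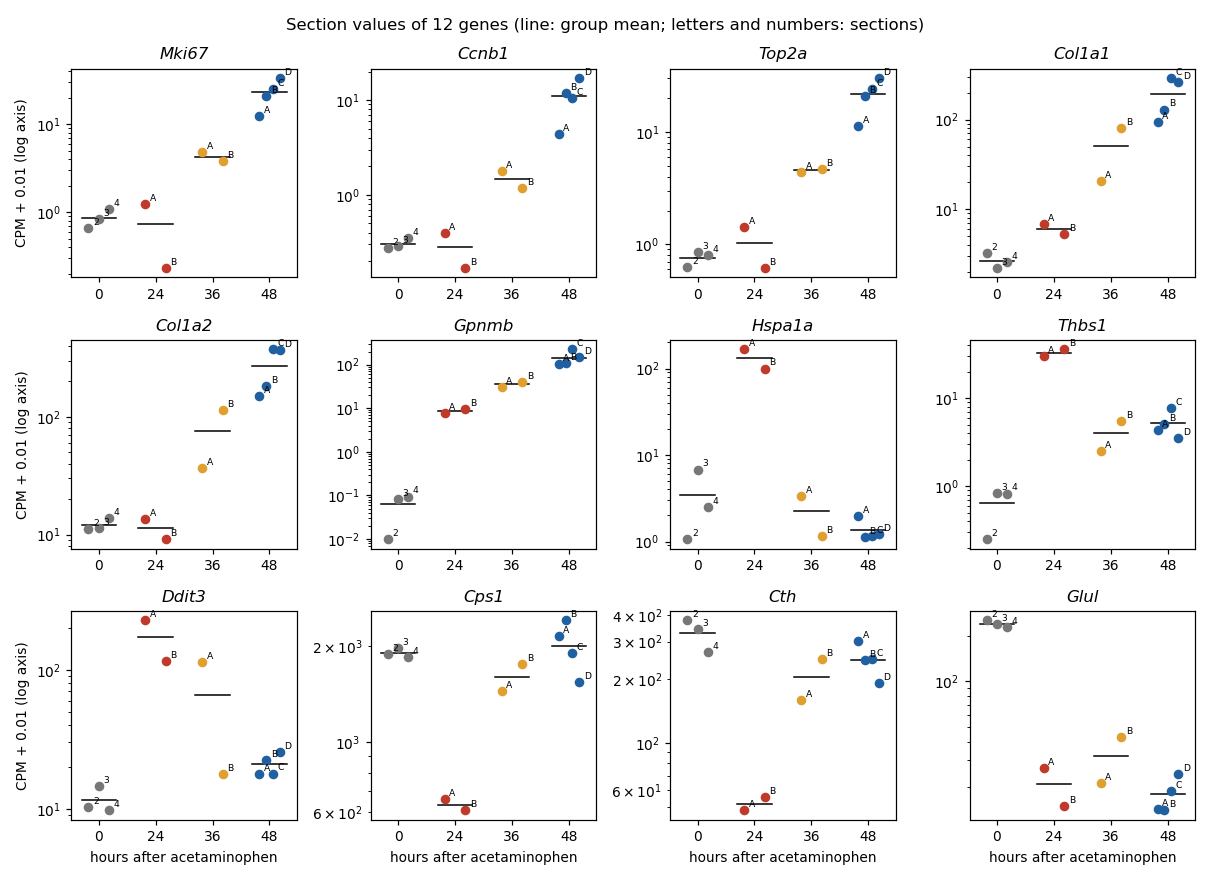
Level of 12 genes (1 panel each) in every section by time after APAP (x axis, hours), in CPM plus 0.01 on a log axis (y axis), 1 point per section. Mki67, Ccnb1, Top2a, Col1a1, Col1a2 and Gpnmb are higher in all 4 sections at 48 h than in both at 24 h, Hspa1a, Thbs1 and Ddit3 are lower in all 4, Cps1 and Cth are back near 0 h, and Glul stays low.

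Fibrillar collagen was another new programme. Of 16 collagen genes, 11 rose and 0 fell, with a median of 1.91. Col1a1, which encodes the alpha 1 chain of type I collagen, had 6.88 and 5.20 at 24 h and 94.3, 129.6, 291 and 261 at 48 h (log2 5.0 ± 0.72, adjusted p = 0.00119). Its partner chain gene Col1a2 had 13.7 and 9.16 and then 150.4, 183, 375 and 368, and Col3a1 of type III collagen 21.4 and 12.9 and then 189.7, 267, 450.3 and 476. In all 3 genes sections C and D lay above sections A and B at 48 h, and all 4 lay above 24 h, where the levels of Col1a2 and Col3a1 were still close to those of 0 h (12.1 and 23.8). Col6a1, Col6a2 and Col6a3 of the beaded type VI filament rose by 4.28, 3.87 and 3.31 on the log2 scale. The basement membrane chains behaved otherwise. Col4a1 had 124 and 130.0 at 24 h and 104, 98, 159.8 and 142 at 48 h against 36.4 at 0 h, and its partner Col4a2 90.7 and 95.8 and then 72.7, 65, 114 and 90.4 against 25.6. Both sets of values overlapped between the times, and neither change was called.

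Around the collagens, the other matrix genes moved in both directions. Of 28 matrix modifiers and matricellular genes, 13 rose and 7 fell. Spp1, which is also on the bile duct list below, was among those that rose. Lox, the lysyl oxidase that crosslinks collagen, rose from 1.01 and 1.60 to 7.18, 8.33, 12.4 and 11.1, and its relative Loxl1 by 2.64 on the log2 scale. Lum, lumican, a proteoglycan of collagen fibrils, rose from 7.61 and 5.71 to 33.8, 42.1, 60 and 60, and elastin (Eln) by 3.32. Postn, periostin, rose from 9.85 and 9.41 to 29.7, 32.3, 45.4 and 62. The gelatinase gene Mmp2 rose by 3.82 while the collagenase gene Mmp13 fell by 2.86. Thbs1, thrombospondin 1, fell from 29.6 and 35.8 to 4.30, 5.09, 7.68 and 3.54. Plat, tissue plasminogen activator, rose from 0.667 and 0.893 to 13.7, 10.6, 14.9 and 6.03, with no overlap between the times. Fn1, fibronectin, most of it made by hepatocytes, fell by 0.60 to 891, 1177, 1141 and 1074, near its 972 at 0 h. Timp1 and Mmp12, both almost silent at 0 h, had 28.9 and 56.9 and 35.3 and 39.8 at 24 h and showed no called change, with adjusted p of 0.253 and 0.381. The 13 rises among matrix genes became 7 with 24 h A left out and 8 with 24 h B left out and the 7 falls among matrix genes became 4 with 24 h A left out and 3 with 24 h B left out. The call was lost for Lox without 24 h A or B and for Fn1 without 24 h B.

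The stellate cell genes did not all move with the collagens. Acta2, the smooth muscle actin of contractile myofibroblasts, was 2.51 at 0 h and already 57.4 and 43.1 at 24 h. At 48 h it was 49.1, 57.2, 68.7 and 68.9, overlapping 24 h (log2 0.28 ± 0.39, adjusted p = 0.607). Of 14 contractile genes 2 rose, Vim and S100a6, and the median was 0.30. That count is near the 16.2% higher over all genes tested and does not set the list apart. The genes of quiescent stellate cells had been lowered at 24 h and 8 of 14 rose, with a median of 1.19. Lrat, which esterifies retinol for storage, had 22.1 at 0 h, 7.05 and 10.2 at 24 h and 21, 21.2, 26.9 and 33.5 at 48 h. Reln had 53, then 21.1 and 14.2, then 30.8, 46, 46.6 and 58.3. Hgf, the hepatocyte growth factor gene, whose main source in liver is the stellate cell, rose from 1.35 and 1.24 to 3.30, 4.09, 5.11 and 4.42 against 1.53 at 0 h. Pdgfra rose by 2.42, and for Pdgfrb, the pericyte receptor, the groups did not overlap but the change was not called (adjusted p = 0.074). The test was no longer passed for Vim without 24 h A or B or 48 h C and for S100a6 without 0 h 2, 3 or 4 or 24 h A or B or 48 h A, B or C.

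Some macrophage genes rose, among them members of a list that marks lipid-laden, phagocytic cells. Gpnmb, a transmembrane glycoprotein of such macrophages, was near absent at 0 h (0.0528), had 7.81 and 9.60 at 24 h and 101, 106, 226 and 147 at 48 h (log2 4.06 ± 0.40, adjusted p = 0.000314). All 4 sections at 48 h stood far above both at 24 h, with section C the highest. Trem2, a lipid-sensing receptor, rose from 7.89 and 10.4 to 39, 38.9, 76 and 51.6, and galectin 3 (Lgals3) from 93.4 and 111 to 295, 242, 512 and 278. Of 17 genes on this list 8 rose, 0 fell and 9 were not called, with a median of 0.51. Cd9, a tetraspanin of the same list, had 63.4 and 91.2 and then 65.2, 63.7, 82.7 and 74.1 and did not pass the test. Of 17 lysosomal genes 8 rose and 1 fell, with Ctss, the cathepsin of antigen-presenting cells, going from 47.2 and 51.6 to 118, 119.7, 226 and 152 and Ctsl falling by 0.58. Of 13 monocyte genes 5 rose, among them the chemokine receptor gene Ccr2, from 2.58 and 4.98 to 8.06, 9.66, 12.8 and 12.3, and Lyz2, lysozyme, from 298 and 288 to 407, 516, 751 and 897. The 8 rises among lysosomal genes became 2 with 24 h A left out and 5 with 24 h B left out and the 5 rises among monocyte genes became 1 with 24 h A or B left out. The threshold was missed for Ctss and Lyz2 without 24 h A or B, for Ctsl without 24 h B and for Ccr2 without 24 h A.

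Of 13 Kupffer cell genes 4 rose and 1 fell. Clec4f, the Kupffer cell lectin, had 157 at 0 h, 87.9 and 66.7 at 24 h and 91, 106, 145 and 160.0 at 48 h. Vsig4, a complement receptor, had 59.2, then 33.8 and 33.4, then 56.8, 62.3, 93.1 and 71.4. Both were below 0 h in the 24 h sections. At 48 h Clec4f in sections A and B was still below 0 h, and Vsig4 in section C was above it. Marco, a scavenger receptor, went the other way, from 16.1 at 0 h to 254 and 273 at 24 h and then to 124, 91.5, 157 and 113. The complement genes C1qa, C1qb and C1qc had higher values in sections C and D than in A and B, and none of them was called (adjusted p 0.213, 0.206 and 0.0594). The 4 rises among Kupffer cell genes became 2 with 0 h 2, 3 or 4 left out, 0 with 24 h A or B left out and 1 with 48 h C or D left out. The call was lost for Clec4f without 24 h A or B or 48 h C or D and for Vsig4 without 24 h A or B.

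Other leukocyte lists moved less, with counts near or below the shares over all genes tested (16.2% higher and 17.8% lower). Of 11 neutrophil genes tested, 1 rose (Mmp8) and 0 fell, and S100a8, a calgranulin, had 17.1 and 60.5 and then 27.3, 25.8, 44.4 and 12.5, so the 48 h values lay between the 2 sections of 24 h apart from section D. Of 11 antigen presentation genes of MHC class II, 2 rose, H2-DMa and H2-DMb1, while H2-Aa stayed low with 16.2 and 16.1 and then 16.8, 16.5, 27.6 and 32.6 against 67.2 at 0 h. Of 16 lymphocyte genes 3 rose, Nkg7, Igkc and Jchain, and the T cell gene Cd3g stayed scarce, with 0.839 and 0.223 and then 0.652, 0.745, 0.789 and 1.08. Of 19 chemokine genes 2 rose and 2 fell. The neutrophil attractant Cxcl1 had 1.28 at 0 h, 48.2 and 118 at 24 h and 37.3, 46.6, 26 and 7.92 at 48 h and was not called. The monocyte attractant Ccl2 had 2.52, then 50.8 and 49.4, then 56.8, 65.9, 38 and 22.3 and was not called either. The stromal chemokine Cxcl12 rose from 79.6 and 95.3 to 129.8, 171, 150.3 and 154. The test was no longer passed for Mmp8 without 24 h A or 48 h B or C, for H2-DMa without 24 h A or B, for H2-DMb1 and Igkc without 24 h B and for Nkg7 without 0 h 3 or 24 h A or B or 48 h B, C or D. It was lost for Jchain without 0 h 2 or 3 or 24 h B or 48 h A, B or C.

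Among genes that reached 10 CPM, the largest fall was in the heat shock response. Of 24 chaperone genes 15 fell and 1 rose. Hspa1a, the inducible Hsp70, had 167 and 99.9 at 24 h and 1.97, 1.13, 1.16 and 1.20 at 48 h (log2 -6.60 ± 0.62, adjusted p = 0.000306). Its near-identical neighbour Hspa1b had 276 and 164 and then 3.74, 4.09, 2.63 and 5.22. All 8 values at 48 h lay below the 0 h means of 3.45 and 20.3. For Hspa1a they overlapped the 0 h sections (1.06, 6.79 and 2.51), and for Hspa1b they lay below all of them (12.2, 36 and 12.7). Reads of these 2 genes can be hard to tell apart, and their promoter windows are the same in 296 of 300 bases. Dnajb1, an Hsp40 partner of Hsp70, fell from 90.2 and 72.8 to 21, 22.7, 17.7 and 19.1, and Bag3, an Hsp70 co-chaperone, by 1.57. Hspb1, the small heat shock protein Hsp27, had 365 and 351 and then 31.7, 31.4, 32.7 and 145, with section D well above the other 48 h sections and still below 24 h. Hspa8, the constitutive Hsp70, fell from 2425 and 1709 to 867, 1167, 706 and 762. The 1 rise was Serpinh1, the collagen chaperone Hsp47, from 55.9 and 39.1 to 67.8, 85.2, 120.4 and 151, and this member is known for folding procollagen. The 15 falls among chaperones became 8 with 24 h A left out. The threshold was missed for Serpinh1 without 24 h A or B or 48 h C or D.

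The windows of Hspa1a and Hspb1 are shown because they hold the heat shock element, which promoters of this family are known to carry. They are 150 bases before the RefSeq start on GRCm38.p6, 5′ to 3′ on the strand of the gene, at chr17:34972157-34972306 on the minus strand for Hspa1a and chr5:135887769-135887918 on the plus strand for Hspb1. Matches to GAANNTTC or TTCNNGAA, the facing GAA repeats of a heat shock element, are in capitals.
Hspa1a: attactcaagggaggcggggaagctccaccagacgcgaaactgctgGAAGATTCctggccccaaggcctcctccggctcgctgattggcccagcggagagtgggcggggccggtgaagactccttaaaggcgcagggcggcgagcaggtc
Hspb1: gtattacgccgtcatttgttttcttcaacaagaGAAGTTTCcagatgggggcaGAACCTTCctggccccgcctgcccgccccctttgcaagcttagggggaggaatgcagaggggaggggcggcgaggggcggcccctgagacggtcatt
Such a match lay within the 300 base window of 11 of 20 (55%) chaperone genes with a window, of 0 of 12 (0%) collagen genes and of 4073 of 27025 (15.1%) genes in all. The 300 bases of Dnajb1, which also fell, held none, and the match of Bag3 lay after the start.

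Of 19 stress genes of the endoplasmic reticulum 10 fell and 0 rose, and the median was -1.21. Ddit3, the transcription factor CHOP, had 11.5 at 0 h, 227 and 116 at 24 h and 17.9, 22.5, 17.9 and 25.5 at 48 h (log2 -3.03 ± 0.54, adjusted p = 0.00299). Hspa5, the chaperone BiP, fell from 2421 and 1594 to 654, 996, 521 and 1255, and Trib3, a CHOP target, from 31.5 and 25.5 to 10, 5.11, 5.14 and 5.92. Psat1, of serine synthesis, fell from 29.1 and 24.4 to 9.43, 8.98, 10.9 and 7.48 and stayed above its 0.757 at 0 h. The early response genes fell in part: 7 of 18 fell and 0 rose. Fosl1, an AP-1 subunit, fell from 13.8 and 18.3 to 4.68, 1.79, 1.95 and 0.650 and Atf3 from 36.5 and 34.4 to 15.4, 14.3, 17 and 15.1, while Egr1 had 28 and 48.8 and then 39.6, 80.6, 27.1 and 46.1 and Fos 6.97 and 10.3 and then 6.31, 17.8, 10.3 and 7.53, with no call for either. Of 14 YAP targets 6 fell and 1 rose, the mitotic gene Birc5. Ctgf and Ankrd1 led the falls, Ctgf from 51.8 and 48.1 to 15.8, 9.52, 16.7 and 9.51 and Ankrd1 by 3.13 on the log2 scale. The 10 falls among genes of endoplasmic reticulum stress became 6 with 24 h A left out, the 7 falls among early response genes became 2 with 24 h B left out and the 6 falls among YAP targets became 2 with 24 h B left out. The call was lost for Hspa5 without 24 h A, for Atf3 without 24 h A or B and for Ctgf without 24 h A or B or 48 h B or D.

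Antioxidant genes were less uniform. Of 20 NRF2 targets 4 fell (Srxn1, Fth1, Prdx1 and Txnrd1) and 0 rose. That number of falls is near the 17.8% of all genes tested. Srxn1, sulfiredoxin, fell from 258 and 220.2 to 128, 71.5, 116 and 49.8 against 28.9 at 0 h. Gsta1, a glutathione transferase, stayed high, with 4.35 at 0 h, 360.0 and 337 at 24 h and 385, 189.7, 430.0 and 100.5 at 48 h, and Hmox1, heme oxygenase 1, had 12.7, then 49.8 and 83.6, then 64.3, 55.4, 83.2 and 47.6. Neither was called. The metallothionein gene Mt2 fell from 370.2 and 3323 to 212, 64.6, 322 and 48. Its 24 h sections differed widely, as did those of Mt1 (2229 and 19050.1), and section B carried most of the 24 h mean. Of 7 genes of metallothioneins and zinc transport 4 fell and 0 rose. The 4 falls among metallothionein and zinc genes became 2 with 24 h B or 48 h A or B left out. Calls were lost for Txnrd1 without 0 h 2, 3 or 4 or 24 h A or B or 48 h B, C or D, for Mt2 without 24 h B or 48 h A, B or D and for Mt1 without 24 h B or 48 h A or B.

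The acute phase response fell towards or to the resting level: 16 of 27 genes fell and 0 rose, with a median of -1.17. Fgb, a fibrinogen chain, had 6731 at 0 h, 15503 and 18846 at 24 h and 4985, 6036, 6879 and 5563 at 48 h (log2 -1.55 ± 0.15, adjusted p = 0.000273). Hp, haptoglobin, fell from 14446 and 21788 to 5066, 6442, 7621 and 6046 and stayed above its 2788 at 0 h. Saa1, serum amyloid A, had 2068 and 3082 and then 42.5, 193, 662 and 731, with sections A and B at 48 h under its 0 h mean of 292 and C and D above it. That spread left it without a call (adjusted p = 0.0605), while its neighbour Saa2 was called (adjusted p = 0.0443). Lcn2, lipocalin 2, had 621 and 1576 and then 185, 331, 738 and 209 against 4.93 at 0 h and was not called. Hamp, the iron hormone hepcidin, had 685 and 2342 and then 3234, 2512, 2346 and 2508 and overlapped between the times. The 16 falls among acute phase genes became 9 with 24 h B left out. Significance was lost for Saa2 without 0 h 2 or 24 h A or B or 36 h A or B or 48 h A, B or D.

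The genes of ribosome assembly and of the proteasome fell almost as whole groups. Of 20 genes of ribosome biogenesis 16 fell and 0 rose, with a median of -0.68. Nop56, a box C/D ribonucleoprotein, had 18.5 at 0 h, 60.1 and 52.8 at 24 h and 24.2, 27.2, 27.1 and 27.5 at 48 h. Of 27 proteasome subunit genes 25 fell and 0 rose, with a median of -0.54 and a median against 0 h of -0.38 at 48 h. Scaled by total counts, 15 of them fell. Psmd1, a subunit of the regulatory cap, had the largest fall of them, from 35.8 and 26.7 to 14.5, 15.2, 10.7 and 13, and Psmb5, a catalytic subunit, fell from 232 and 214 to 133, 124, 130.5 and 122 against 171 at 0 h. The 25 falls among proteasome genes became 15 with 24 h A left out.

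Hepatocyte enzymes of nitrogen metabolism rose, part of them to the 0 h level. Of 8 urea cycle genes 4 rose and 0 fell. Cps1, the first enzyme of the cycle, had 1891, 1975 and 1850.1 at 0 h, 660.3 and 609 at 24 h and 2156, 2411, 1898 and 1543 at 48 h (log2 1.66 ± 0.18, adjusted p = 0.000329). The 48 h sections lay around the 0 h level and well clear of 24 h. Ass1 had 1031, then 232 and 242, then 1091, 731, 776 and 636, and Otc 475, then 124 and 102, then 241, 306, 225 and 289.6, which left Otc below 0 h. Arg1, arginase, with 493 and 638 and then 1071, 780.0, 930.0 and 468, was not called. Of 25 genes of amino acid catabolism 16 rose and 0 fell, with a median of 0.82. Against 0 h the median of this list was -1.27 at 24 h and -0.70 at 48 h, so under TMM scaling it remained below the resting level. Cth, which makes cysteine from cystathionine and so feeds glutathione synthesis, had 378, 345 and 267 at 0 h, 48 and 55.3 at 24 h and 302, 246, 248 and 191 at 48 h (log2 2.26 ± 0.24, adjusted p = 0.000329). Hal, histidase, rose from 69 and 94.7 to 281, 288, 191 and 180, and Bhmt, of the methionine cycle, from 1517 and 671 to 3592, 3974, 3920.0 and 2050.0. The 16 rises among amino acid genes became 10 with 24 h A or B left out. Calls were lost for Bhmt without 24 h B or 48 h B or C.

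Bile acid and drug genes came back unevenly. Of 16 genes of bile acid synthesis and transport 6 rose and 0 fell. The bile salt export pump gene Abcb11 had 510.2 at 0 h, 150.3 and 92.2 at 24 h and 312, 251, 233 and 298 at 48 h. Cyp7a1, the rate-limiting enzyme of bile acid synthesis, had 10.9 and 0.447 and then 27, 38.7, 32.6 and 11.7, all above 24 h and not called (adjusted p = 0.115), and Cyp8b1 stayed at 78.9, 46.5, 55.3 and 76.6 against 414 at 0 h. Of 11 genes tested for APAP oxidation and conjugation 2 rose and 3 fell. Cyp2e1, the main P450 that activates APAP, had 2787, 2487 and 2011 at 0 h, 433 and 256 at 24 h and 550.3, 574, 472 and 529 at 48 h, a small rise (log2 0.62 ± 0.20, adjusted p = 0.0353) that left every section below 0 h. Cyp1a2 rose from 113 and 27 to 169, 255, 416 and 329.7. Cyp3a11 had 164 and 87.1 and then 292, 445, 308 and 1361, with section D far above the rest. Cyp2a5, which had been raised at 24 h (92.4 at 0 h and 474 and 420.3 at 24 h), fell to 70.8, 26.3, 44.8 and 33.9, and Gstp1, glutathione transferase pi, fell from 1122 and 608 to 139, 165, 67 and 210.3. The 6 rises among bile acid genes became 3 with 24 h B left out. Significance was lost for Abcb11 without 24 h B, for Cyp2e1 without 24 h B or 48 h A, B or D and for Cyp1a2 without 0 h 2, 3 or 4 or 24 h B or 48 h B, C or D.

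The Wnt-dependent genes of the central vein region divided into those that came back and those that did not. Of 17 such genes 7 rose and 0 fell. Axin2, a feedback inhibitor in the pathway, had 2.52 at 0 h, 0.688 and 0.351 at 24 h and 2.20, 2.42, 3.20 and 2.93 at 48 h. Lgr5, a receptor for R-spondins, had 2.71, then 0.0860 and 0.255, then 1.56, 1.79, 1.38 and 1.08. Notum, which inactivates Wnt ligands, had 30, then 10.3 and 3.45, then 18.4, 28.8, 24.1 and 33.9. Glul, glutamine synthetase of the hepatocytes next to the central vein, had 254, 239 and 229.7 at 0 h, 26.7 and 14.9 at 24 h and 14.4, 14, 18.7 and 24.5 at 48 h, with the groups overlapping (log2 -0.22 ± 0.32, adjusted p = 0.621). Oat, of the same hepatocytes, had 271, then 24.6 and 30.1, then 36.5, 30.2, 35 and 36.6, and Slc1a2, a glutamate transporter, rose only to 0.507, 0.503, 0.760 and 1.03 against 41.8 at 0 h. The ligand genes of the vein and sinusoid endothelium rose. Wnt2 had 7.25 at 0 h, 1.44 and 1.37 at 24 h and 3.82, 4.89, 6.94 and 7.12 at 48 h, and Rspo3, an R-spondin, 5.94, then 2.26 and 2.81, then 6.36, 7.13, 8.58 and 8.89. Of 23 central and 12 portal hepatocyte genes that the study picked, 7 and 5 rose and 2 and 2 fell. The study chose these genes on its own spatial data, so the counts are not independent evidence of a direction. The 7 rises among central genes became 3 with 24 h B left out and 4 with 48 h B or D left out and the 5 rises among portal genes became 2 with 24 h A or B left out. The test was no longer passed for Slc1a2 without 24 h A.

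Of 11 genes of vein endothelium and Wnt ligands 6 rose and 1 fell, the tip cell gene Esm1, from 5.85 and 18.2 to 2.42, 1.59, 1.74 and 1.01. Of 16 sinusoidal endothelial genes 5 rose and 1 fell. Ehd3 rose from 10.2 and 11.4 to 20.1, 20.8, 25.5 and 29.5 against 63.7 at 0 h, Kdr, the VEGF receptor 2, from 20.2 and 17 to 28.2, 26.6, 28 and 30.6 against 48.7, and Bmp2 from 4.90 and 6.96 to 9.77, 10.6, 10.8 and 14 against 21.6. All 3 thus remained below their 0 h means. Lyve1, the hyaluronan receptor, fell from 18.1 and 34.1 to 6.89, 6.70, 7.63 and 8.12, near its 7.61 at 0 h. The pan-endothelial gene Cdh5 had 26.7 and 37.4 and then 24.7, 22.4, 27.2 and 27.7 and did not pass the test. The 5 rises among sinusoidal genes became 2 with 24 h A left out. The threshold was missed for Ehd3 and Bmp2 without 24 h A and for Lyve1 without 24 h B.

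Several hepatocyte programmes did not come back by 48 h. All 13 mitochondrially encoded mRNAs were lower at 24 h than at 0 h, with a median of -1.55 on the log2 scale, and at 48 h the median was -1.59. Between the 2 times 0 rose and 1 fell (mt-Nd4l), and mt-Co1 had 3819 and 4265 and then 5186, 4743, 4392 and 3599 against 10984 at 0 h. Of 24 genes of cholesterol and fatty acid synthesis 6 fell and 0 rose. Scd1, the stearoyl-CoA desaturase, had 9386 at 0 h, 1723 and 272 at 24 h and 685, 381, 739.8 and 967 at 48 h. Of 16 growth hormone dependent genes 1 rose (Ghr, the hormone receptor) and 3 fell, among them Cyp4a12a, from 28.6 and 18 to 10.1, 3.62, 8.15 and 10.1 against 232 at 0 h. Over all genes tested 16.2% rose and 17.8% fell, so these counts do not set the list apart. Its median against 0 h was -0.98 at 24 h and -1.08 at 48 h. Of 14 genes of gluconeogenesis and fasting 3 rose, Fbp1, Igfbp2 and Tat. Of 18 genes of fatty acid oxidation 1 rose, Ehhadh, from 15.7 and 11.3 to 61.3, 48.4, 32.5 and 73.5, and 2 fell. The counts of both lists are likewise near or below the shares over all genes tested. Against 0 h the gluconeogenesis median was -1.26 at 24 h and -1.0 at 48 h. For fatty acid oxidation it was -0.85 and -0.89. The 6 falls among genes of cholesterol and fatty acid synthesis became 1 with 24 h A left out. The call was lost for mt-Nd4l without 0 h 2, 3 or 4 or 24 h B or 48 h B, C or D, for Ghr, Fbp1 and Igfbp2 without 24 h B, for Cyp4a12a without 0 h 2, 3 or 4 or 24 h A or B or 48 h A, B or C and for Tat without 24 h A.

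Some falls ended well below 0 h. Cyp2c40, a P450, had 80.2 at 0 h, 23.2 and 4.31 at 24 h and 0.536, 1.23, 0.215 and 0.332 at 48 h, and Mup17, a major urinary protein gene, 2895, then 268 and 286, then 11.1, 9.88, 15.4 and 52.9. Both belong to clusters of near-identical genes, so their reads may be shared with relatives. Serpina7, which encodes thyroxine-binding globulin, had 43.3 at 0 h, 61.3 and 88.3 at 24 h and 3.20, 3.74, 6.11 and 8.48 at 48 h. It lay above the 0 h mean at 24 h and below every 0 h section at 48 h. Of 16 hepatocyte transcription factor genes 5 fell and 0 rose, with Foxa3 falling by 1.0 and Hnf4a not called, with 144 and 183 and then 161, 159, 131 and 126.8. Of 20 secreted hepatocyte proteins 3 rose (Ttr, Rbp4 and Apoc2) and 3 fell, and albumin RNA had 45565 and 51575 and then 54776, 59988, 42701 and 44357. Of 22 coagulation and complement genes 7 fell and 0 rose, with Mbl2, mannose-binding lectin, falling from 321 and 274 to 112, 121, 111 and 190.1. The 5 falls among transcription factors became 1 with 24 h A left out, 2 with 24 h B left out and 3 with 48 h A or B left out and the 7 falls among coagulation and complement genes became 2 with 24 h B left out. Calls were lost for Foxa3 without 24 h B, for Rbp4 without 0 h 2, 3 or 4 or 24 h A or B or 48 h A, B or D and for Apoc2 without 24 h A or B or 48 h A or C.

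Among signals between cells, 3 inhibin genes fell. Inhbb, the activin B subunit, had 2.27 at 0 h, 12.6 and 25.4 at 24 h and 3.95, 3.12, 3.16 and 1.49 at 48 h, and Inhbe fell by 1.80 and Inhba by 1.61 on the log2 scale. The receptor gene Tgfbr2 rose from 18.6 and 16 to 34.3, 35.9, 39.6 and 31.2, and of 16 genes of TGF-beta and activin signalling 5 rose and 3 fell. Of 13 genes of the HGF and EGF receptor axis 3 rose (Hgf, Tgfa and Erbb2) and 1 fell (Ereg, epiregulin, from 3.14 and 4.72 to 0.449, 0.705, 0.344 and 0.419). Igfbp3, an IGF binding protein made in non-parenchymal liver cells, had 17.5 at 0 h, 1.18 and 2.17 at 24 h and 35.7, 35.1, 45 and 21.2 at 48 h (log2 4.39 ± 0.50, adjusted p = 0.00045), so it was low at 24 h and above 0 h at 48 h. Of 18 interferon-stimulated genes 5 rose and 2 fell, with Gbp2 rising from 2.22 and 1.79 to 4.34, 6.34, 5.28 and 6.75. The 5 rises among TGF-beta and activin genes became 2 with 24 h A left out and the 5 rises among interferon genes became 0 with 24 h B left out, 2 with 48 h B left out and 3 with 48 h D left out. Significance was lost for Inhbb and Gbp2 without 24 h B, for Inhba without 0 h 2, 3 or 4 or 24 h A or B or 48 h A, B or C, for Tgfa without 24 h A or 48 h B, C or D and for Erbb2 without 24 h A or B or 48 h C.

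Genes of cell shape and migration moved in both directions. Of 21 genes of the migratory hepatocyte list of the study 6 rose and 2 fell. The study picked these genes on a cluster of human hepatocyte nuclei, and they were matched here to mouse genes by symbol. Anxa2, annexin A2, rose from 72.4 and 112 to 254, 189.9, 297 and 128, with section D the lowest at 48 h, and Akap12, a scaffold of protein kinase A, fell from 13.4 and 20.2 to 1.80, 2.25, 2.44 and 2.49, back to its 2.41 at 0 h. Of 15 annexin and S100 genes 5 rose and 2 fell. S100a6 rose from 67.3 and 139 to 434, 392.5, 458 and 167. Sprr1a, a cornified envelope gene near 0 in uninjured liver (0.0269), had 214 and 218 and then 114, 58.8, 157 and 12.3, with section D again the lowest and no call. Of 12 tubulin genes 2 rose (Tuba1a and Tuba1b) and 4 fell. Krt8, a keratin of hepatocytes and bile duct cells, had 213 at 0 h, 957 and 1123 at 24 h and 999, 649, 971 and 290.2 at 48 h. Of 11 bile duct genes tested 2 rose, Cdh1 and Spp1, and 1 fell, Sox9, while the duct markers Krt19 and Epcam did not pass the test. Spp1 is also on the list of matrix genes, and which cells carried its rise was not tested. Afp, alpha-fetoprotein, the fetal albumin relative, had 1.28 at 0 h, 8.26 and 5.36 at 24 h and 20.6, 26.7, 27.6 and 23.6 at 48 h, and 2 of 7 fetal liver genes tested rose. None of 5 red cell genes was called by edgeR, with 0 at an unadjusted p under 0.05, and DESeq2, which gave an adjusted p for 1 of them, called 0. The 6 rises among migratory genes became 3 with 24 h A or B left out, the 5 rises among annexin and S100 genes became 3 with 0 h 2 or 3 or 48 h A, B or C left out, 2 with 24 h A left out and 0 with 24 h B left out and the 4 falls among tubulins became 2 with 24 h A left out. The test was no longer passed for Anxa2 without 0 h 2 or 3 or 24 h A or B or 48 h A, B or C, for Tuba1a and Spp1 without 24 h A or B, for Tuba1b without 24 h A or B or 48 h C or D and for Cdh1 and Sox9 without 24 h B.

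Because both times fall at the same clock hour, the clock genes were set out on their own. Of 18, 2 rose (Per3 and Dbp) and 1 fell (Nfil3), with a median of 0.17. Arntl, the core activator Bmal1, had 8.80 and 9.32 and then 11.2, 12.8, 9.37 and 12.5, and Nr1d1, the repressor Rev-erb alpha, 16.8 and 14.2 and then 13.3, 7.87, 11.9 and 11.2. Neither was called. Calls were lost for Per3 without 24 h A or B, for Dbp without 24 h A or B or 48 h C and for Nfil3 without 24 h B.

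A stricter reading of recovery asked for genes at least 4-fold from 0 h at 24 h and within 1.5-fold of it at 48 h. It found 26 called genes, 16 that had been high and 10 that had been low. Polr2l, a small subunit shared by the RNA polymerases, had 59.3, 76.1 and 62.8 at 0 h, 326 and 318 at 24 h and 68.7, 76.1, 50.8 and 63.4 at 48 h, so it was raised in both 24 h sections and at rest in all 4 later ones. The high set also held Lor, loricrin, which fell by 3.56 on the log2 scale, Maff, a basic leucine zipper factor, which fell by 2.27, and Dnaic1, an axonemal dynein gene that overlaps Enho on the other strand, which fell by 3.0. The low set held Cth and Arhgef11, which rose by 2.68. The matching rule for new genes, called, at least 4-fold higher at 48 h than at 24 h and within 1.5-fold of 0 h at 24 h, found 29. The 10 of these with the largest change were the cell cycle genes Ccnb1, Mki67, Pclaf, Cdc20, Ccna2, Pbk, Birc5 and Top2a, with Col1a2 and Syngr1. Syngr1, synaptogyrin 1, had 0.642 at 0 h, 0.796 and 0.447 at 24 h and 10.4, 8.64, 23.3 and 10.6 at 48 h, and it overlaps the ribosomal protein gene Rpl3 on the other strand. Ch25h, the cholesterol 25-hydroxylase, fell from 9.76 and 12.7 to 0.507, 0.805, 0.832 and 0.982. Gm15247, a transcript inside Mid1 on the other strand, fell from 53.9 and 9.92 to 0.579, 1.37, 0.201 and 0.303. Whether the counting used strand is not given in the sources used here, and whether reads of such pairs were kept apart was not tested.

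**Figure D4:**
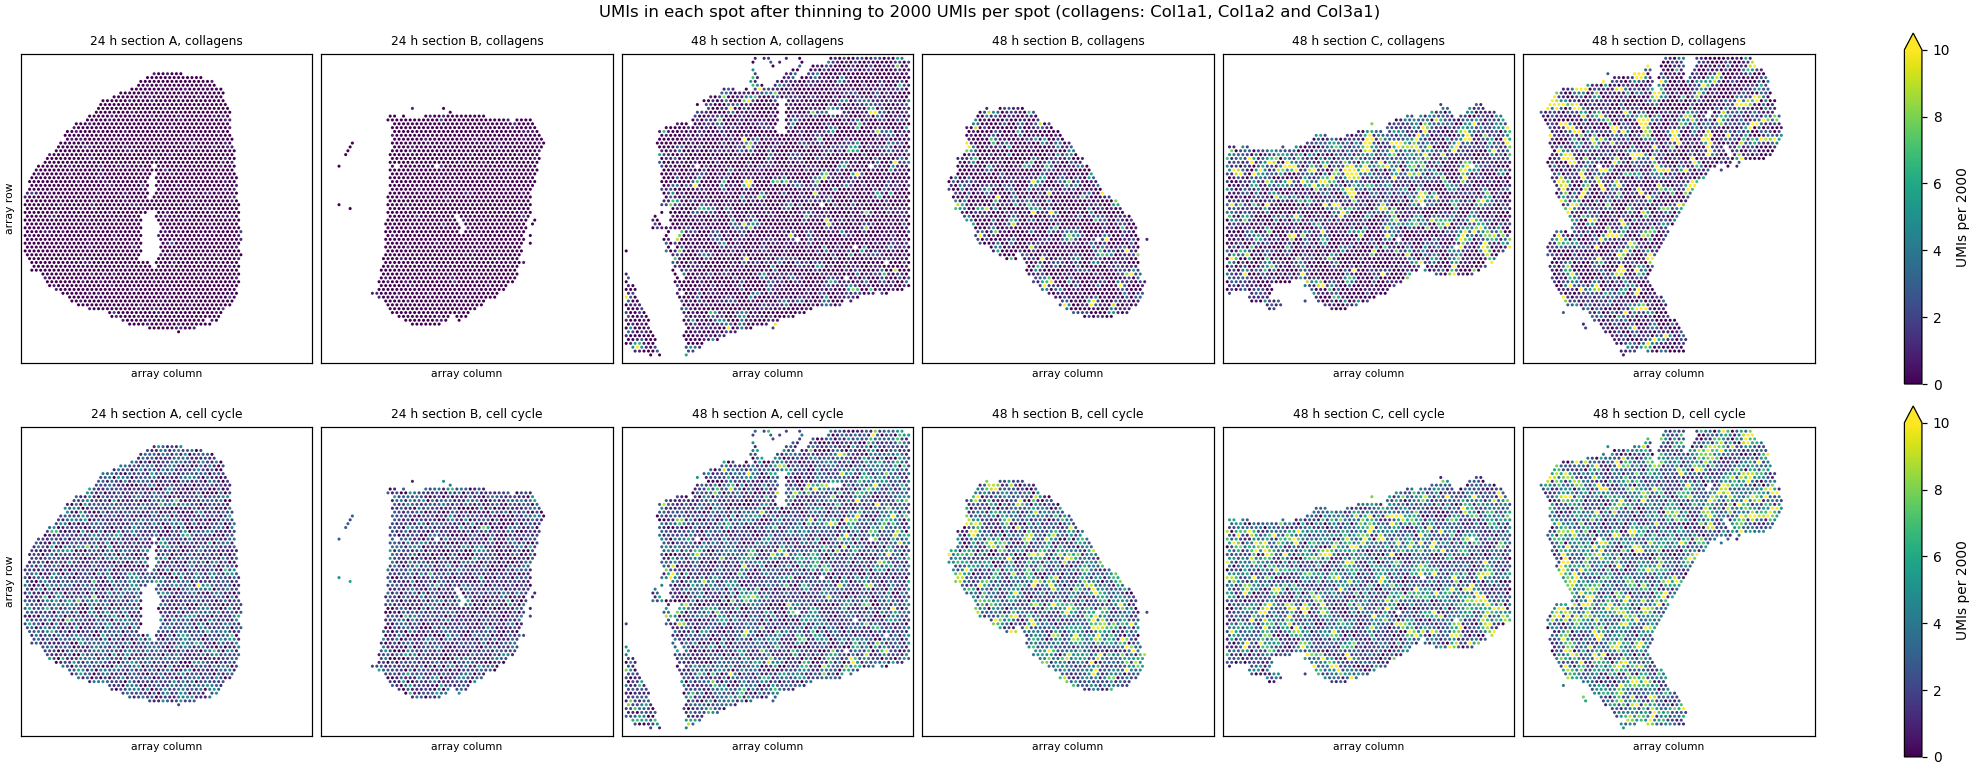
Spots of the 6 sections drawn at their array position (24 h A and B, 48 h A to D, left to right), coloured by UMIs per spot after thinning each spot to 2000 UMIs, for Col1a1, Col1a2 and Col3a1 (top row) and for the S phase and G2 and M phase lists (bottom row). Mean collagen UMIs per spot are 0.0893 and 0.0564 at 24 h and 0.954 to 2.64 at 48 h, and at 48 h they gather in patches. The lists of the bottom row hold abundant genes such as Tubb4b, so their sum is not a measure of mitosis alone.

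Where in the tissue these RNAs lay was described by dividing spots, and only the share of low spots was tested. The planned score of hepatocyte RNA used Alb, Ttr, Hp, Hnf4a, Apoa1 and Cyp2e1, and a spot under percentile 1 of the 0 h spots was low. Among these genes Hp was called lower at 48 h and Ttr and Cyp2e1 higher. The score marked 0.992% and 0.303% of spots at 24 h and 3.18%, 1.01%, 6.47% and 1.99% at 48 h as low. The difference in means was 2.51 percentage points (exact two-sided permutation test, p = 0.133, the smallest that 4 against 2 sections allow). With 6 secreted hepatocyte genes as the score (Alb, Apoa1, Apoa2, Apoc3, Ttr and Serpina1b) the shares were 19% and 22% at 24 h and 10.1%, 10.5%, 20.3% and 7.91% at 48 h, and the difference turned round to -8.27 (exact permutation p = 0.267). The share of hepatocyte-poor tissue thus depended on the genes that defined it, and no direction is drawn from it.

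The spots low in the 6 secreted genes, a division chosen after seeing the data, were compared with spots at least 3 steps from any of them, as plain CPM, the UMIs per 1000000 of each zone. The sum of Col1a1, Col1a2 and Col3a1 was 67.8 and 47.8 in low spots and 44.4 and 21.1 in far spots at 24 h. At 48 h it was 1767, 2371, 3429 and 4741 in low spots and 283, 484, 583 and 766 in far spots, so the collagens were higher in both zones than at 24 h and highest in the low spots of each section. Gpnmb had the same arrangement, with 447, 471, 813 and 796 in low and 58.9, 89.6, 76.2 and 82.4 in far spots at 48 h. Spp1 was 71.2 and 96.1 in low and 218 and 195 in far spots at 24 h. At 48 h it was 597, 823, 1034 and 875 in low and 152, 308, 436 and 271 in far spots. Acta2 in low spots was 109 and 100 at 24 h and 236, 288, 228 and 304 at 48 h, while in far spots it was 52 and 20.7 and then 26.9, 46.6, 42.2 and 44.3. Over whole sections Acta2 was not called, and inside these low spots its plain CPM was higher in all 4 later sections than in both earlier ones. This zone was not fitted. In the 27 alternative fits, which include the spots that the planned score marked as low, Acta2 was not called. Its log2 change there lay between 0.029 and 0.50.

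The sum of Mki67, Ccnb1, Top2a and Cdk1 was 7.20 and 2.64 in low and 5.66 and 2.26 in far spots at 24 h, and 137, 230.1, 244 and 325 and 30.6, 72, 48.6 and 99.5 at 48 h. At 48 h the low spots had the higher level in each of the 4 sections. At 24 h only 58 and 17 UMIs in low and 38 and 6 in far spots lay behind the values, and no direction was read from them. The 4 genes were chosen after the values were seen. The whole G2 and M phase list is not used here, since it holds abundant members such as Tubb4b, which fell. The sum of 4 heat shock genes was 1604 and 908 in low and 384 and 175 in far spots at 24 h, and 92.1, 94.9, 63.6 and 147 and 54.5, 73.7, 36.4 and 104 at 48 h. The urea cycle list was 2026 and 2265 in far spots at 24 h and 6753, 5916, 6206 and 4386 at 48 h, against 1536 and 1613 and 2737, 2519, 2432 and 1734 in low spots. The difference between the times was larger in the far spots. Low spots were chosen for little hepatocyte RNA, and their share varied between sections, so the zones need not hold like tissue at the 2 times. Summed over the spots that the planned score marked as low, the log2 changes at 48 h of Ccnd2, Cyp2e1, Ghr and Rbp4 were 0.44, -0.86, -0.09 and -0.16, opposite in sign to those of whole sections. A spot can hold several cell types, and which of them carried an RNA was not tested.

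**Figure D5:**
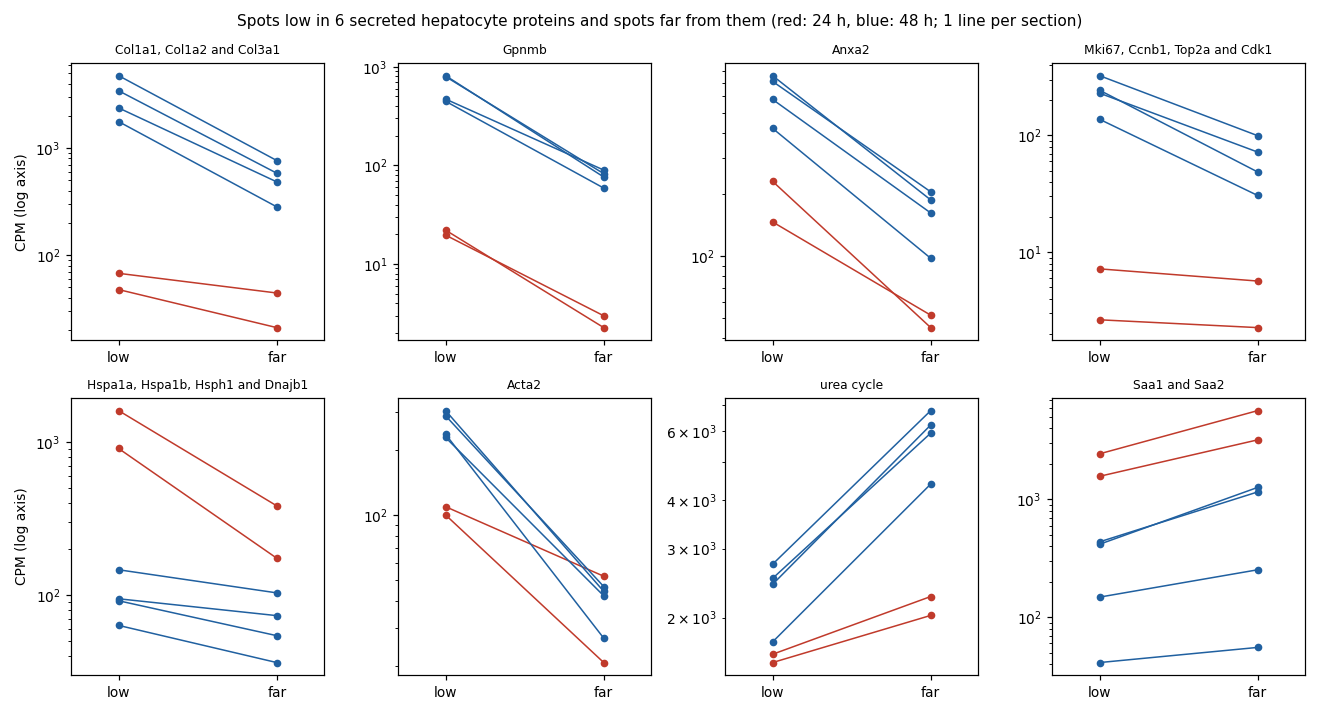
CPM (y axis, log scale) in spots low in 6 secreted hepatocyte genes and in spots at least 3 steps away (x axis), 1 line per section, 24 h in red and 48 h in blue, for 8 genes or gene sums. The collagen lines at 48 h run from 1767, 2371, 3429 and 4741 in low spots down to 283, 484, 583 and 766 in far spots, above both 24 h lines.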

How the data were processed

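The authors sequenced Visium libraries of frozen mouse liver sections and made count matrices with Space Ranger 1.0.0 on mm10, and Seurat 4.1.1 is also listed in the submitters' processing notes. The deposited counts are untransformed UMIs of 31053 genes in 4992 barcoded spots, and all sections share the barcodes because the array design is the same. The study's manual removal of isolated spots was not repeated. UMIs were summed per section over spots under tissue with at least 800 genes and at most 20% mitochondrial UMIs.

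All 11 sections entered 1 model of the time point (edgeR 4.0.16 quasi-likelihood test with TMM scaling, filterByExpr and robust estimates, limma 3.58.1, R 4.3.3), and 48 h was contrasted with 24 h, two-sided, with Benjamini-Hochberg adjustment over all 14821 genes tested. A gene was called at an adjusted p under 0.05. The code was tested on simulated data. No pair of sections of 1 time agreed within sampling noise. The other comparisons with 0 h share sections with this one and only place the resting level. Each 0 h, 24 h or 48 h group is a set of sections that the sources do not trace to separate mice, so the p-values may measure technical spread.

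The members and lists were chosen with earlier results of these data known. Levels are in CPM, UMIs per 1000000 of a section. Genes are named if they are among the 10 largest called rises or falls with at least 10 CPM and no overlap, if they meet the rules for restored or new genes, or if they are the most abundant, most changed or defining members of a list. Some results that these rules would name are not reported here. For some lists, a few further members were named after their values were seen. Alternatives were DESeq2 1.42.0, RLE and total-count scaling, other filters on genes and spots, fewer groups, thinned counts, a letter block, spots split by hepatocyte RNA, and leaving out each section. Spots were thinned to 2000 UMIs before scoring. Tables were handled with pandas 2.3.3 and numpy 2.4.6 and figures drawn with matplotlib 3.10.9. Promoter windows come from RefSeq on GRCm38.p6, where 27025 genes had one.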

Additional observations from a re-analysis of the deposited data

Results flagged for a closer look

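In a group of 4 sections, a single value that stands far from the other 3 turns up by chance in about 1 in 20 groups. Of the 197 genes examined, 14 had such a value among the 48 h sections, and of 52 list sums 1 did. In 7 of the genes it was section D that stood high: Cyp3a11 with 1361 CPM, Fbp1 with 552, Tubb4b with 219, Mbl2 with 190.1, Hspb1 with 145, Mup17 with 52.9 and Dnaic1 with 2.86. The ribosome biogenesis list had its low value in the same section, a sum of 551 CPM. Section A stood low in Pcna (42.4), Nop56 (24.2) and the cyclin gene Ccne1 (4.76), and it stood high in Trib3 (10.0) and Hspa1a (1.97). Section C stood high in Syngr1 (23.3) and low in Foxa3 (27.1). Section B stood apart in none of the genes examined.

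Outside the spots used here, 21.2%, 24.7% and 24.9% of the UMIs of 48 h sections A, B and D lay off the tissue, above the highest share at 0 h (20%). Section C had 14.6% and the 24 h sections 10.7% and 19.7%. The part of this in the results was not tested.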

How the results depend on the processing

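Of the 197 genes followed through the alternatives, 155 were called. DESeq2 lost 0 of these calls, total-count scaling 9, no filter on low counts 18, the injured sections alone 24, the fit without 24 h A 39, the fit without 24 h B 51, hepatocyte-low spots alone 27, the replicate block 75 and its sections with no block 79. Only 7034 genes passed the filter in hepatocyte-low spots, so not all of the 197 were tested there. The 27 counts only genes tested there and leaves out those whose direction turned. Among called genes the direction turned only for Ccnd2, Cyp2e1, Ghr and Rbp4, within hepatocyte-low spots, and for no called gene under the other alternatives. The number of genes called between 48 h and 24 h ranged from 3838 to 5474 with DESeq2, other scalings and filters, fewer groups in the fit, other spot filters and thinned counts. With 1 section left out at a time it ran from 2480 (without 24 h A) to 5963 (without 36 h A), with 1151 to 3092 higher and 1329 to 3084 lower. Scaling by total counts gave 3842 higher and 1348 lower, 74.0% higher in place of 47.7%. Total-count scaling moved the number of rises on the lists Kupffer cell (4 to 8), pericentral Wnt targets (7 to 11), P450 and conjugation of acetaminophen (2 to 6), annexins and S100 (5 to 10), interferon-stimulated (5 to 9) and clock (2 to 5). Total-count scaling moved the number of falls on the lists G2 and M phase (3 to 1), growth hormone dependent (3 to 1), hepatocyte transcription factors (5 to 3), coagulation and complement (7 to 2), YAP targets (6 to 3), proteasome (25 to 15) and tubulins (4 to 2). Within hepatocyte-low spots, which hold far fewer UMIs, 1098 genes were called (630 higher and 468 lower). The section letters were tried as a replicate block over the A and B sections of the injured times, which gave 830 calls (494 higher and 336 lower) against 1106 (602 and 504) in the same sections with no block. Deviations of sections with the same letter at 24 h and 48 h correlated at -0.119 and -0.113. Those with different letters gave 0.113 and 0.119, the same values with the sign turned, since 24 h has only 2 sections. The letters were taken as names only, which these few values cannot settle. The 48 h minus 24 h difference in the share of hepatocyte-low spots was -8.27 percentage points with the other score genes and 1.41 to 3.23 with 1 section left out. The log2 change of Col4a1, which was -0.0080, turned round to 0.011 with DESeq2, 0.013 with RLE scaling, 0.20 with total-count scaling, 0.035 with no filter, 0.044 with the stricter filter, 0.0053 in the 24 h and 48 h sections alone, 0.0020 in the injured sections alone, 0.20 within hepatocyte-low spots and 0.027 without mitochondrial genes. Changes that turned round with total-count scaling were those of Ccl2 (0.069), Cd9 (0.093), Col4a2 (0.080), Hmox1 (0.12) and Hnf4a (0.021). Changes that turned round under the block were those of Ccl2 (0.28) and Epcam (-0.18). Changes that turned round with no block were those of Ccl2 (0.30) and Epcam (-0.18). Changes that turned round within hepatocyte-low spots were those of Alb (-0.14), Ccl2 (0.44), Ccnd2 (0.44), Cd9 (0.50), Cdh5 (0.47), Col4a2 (0.046), Cyp2e1 (-0.86), Egr1 (-0.84), Fos (-0.21), Ghr (-0.091), Glul (1.0), Hmox1 (0.57), Rbp4 (-0.16), S100a8 (1.01) and mt-Co1 (-0.44). With 1 section left out, the log2 change crossed 0 for Alb from -0.039 to 0.15, Ccl2 from -0.36 to 0.098, Cd3g from -0.034 to 1.86, Cd9 from -0.36 to 0.17, Col4a1 from -0.14 to 0.095, Cyp8b1 from -0.98 to 0.20, Egr1 from -0.027 to 0.79, Epcam from -0.045 to 0.27, Fos from -0.097 to 0.59, Glul from -0.57 to 0.26, Hbb-bs from -1.25 to 0.34, Hmox1 from -0.42 to 0.33, Hnf4a from -0.35 to 0.00018, S100a8 from -1.14 to 0.68 and Scd1 from -1.31 to 1.34. The cause of these changes was not tested. The 24 h group has 2 sections, of 1 mouse liver by the methods of the study. The smallest section in the fit, 36 h A, holds 31292663 UMIs. In simulated counts of the same design, the test recovered 55 of 100 genes changed by 1 on the log2 scale and 76 of 98 changed by 2. The simulation changed only these few genes among 14578, evenly up and down, while 34.1% of genes were called in the data. These rates therefore check the code and do not measure the power of this comparison.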
